A study of Canis lupus familiaris with 32 samples.

Results

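ATP6V1C1 and CA2 are genes of acid secretion, the step with which osteoclasts dissolve bone mineral. ATP6V1C1 encodes the C subunit of the vacuolar proton pump (V-ATPase), and CA2 encodes carbonic anhydrase II, the enzyme that supplies the pump with protons. Every probe that the platform annotation assigns to either symbol was taken. This gave 2 genes of the 5246 named on the array, measured by 3 of its 22176 probes, with 1 probe for ATP6V1C1 (probe 398) and 2 probes for CA2 (probe 2267, called CA2 a, and probe 10243, called CA2 b). In all, 7694 probes carried a symbol and 14482 carried none. The genes were chosen by their function with the results of these arrays between survival groups and subgroups already known, and ATP6V1C1 is among the genes that the study called between the groups. Their values by survival group and subgroup are therefore a description without a test.

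The data come from 32 osteosarcomas (OS) of pet dogs, removed at surgery before any other treatment. The tumors were assigned to short survivors (SS), 16 dogs that lived less than 6 months, and long survivors (LS), 16 dogs that lived longer than 6 months. Some dogs of either group received chemotherapy after surgery. RNA of each tumor was hybridized on 1 two-color cDNA array against a pool of RNA from all 32 tumors, with the tumor in Cy5 on 8 arrays and in Cy3 on 8 arrays of each survival group. Subgroups A and B, with 8 SS tumors each, were defined in the study by clustering genes that differed between SS and LS on these same arrays. The labels do not give their members, which were inferred here from the study's counts and log rank statistic. Each tumor is named here by its number, 1 to 16 in SS and 17 to 32 in LS.

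Osteoclasts attach to bone and pump protons across a folded membrane, the ruffled border, into the sealed space beneath them. The V-ATPase consists of a cytosolic sector, which splits ATP and includes the C subunit, and a membrane sector through which protons pass. Carbonic anhydrase II turns carbon dioxide and water into bicarbonate and protons, and chloride channels carry the balancing charge. Both genes are also used outside bone resorption, since every cell acidifies its lysosomes with a V-ATPase and red blood cells contain much carbonic anhydrase II.

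The values are log2 ratios of tumor over pool, so 0 is the level of the pool and a difference of 1 is a 2-fold difference. A ratio of this kind carries no absolute level. Probes were not compared in level, and whether osteoclasts were present could not be checked from their markers. In RNA of whole tumor tissue, fewer cells of a type and less RNA per cell cannot be told apart. The medians of the 32 arrays lay between -0.028 and 0.024, and none of the values of the 3 probes was missing. The arrays differed by dye orientation: when each probe was averaged over the Cy5 arrays and over the Cy3 arrays, the correlation of these means was -0.658, while the lowest correlation between a pair of arrays of the same orientation was 0.0242 in Cy5 and 0.0041 in Cy3. Within-orientation values are therefore given beside each difference between SS and LS of the 3 probes. For the genes of the lists they are given where the orientations had opposite signs or differed by more than 3-fold.

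The log2 ratio of ATP6V1C1 was higher in SS than in LS. In SS it ranged from -0.97 in tumor 7 to 1.14 in tumor 13, with a median of 0.39. In LS it ranged from -1.16 in tumor 32 to 0.31 in tumor 24, with a median of -0.30. The groups overlapped, but 8 of 16 SS tumors lay above the highest LS tumor, and 10 SS tumors against 2 LS tumors lay above the pool. The SS mean was 0.25 ± 0.66 and the LS mean -0.38 ± 0.43 (SD, n = 16 each). They differed by 0.64 ± 0.19 (SE), or 1.55-fold. The difference had the same direction in both dye orientations, 0.52 ± 0.26 for tumors in Cy5 and 0.75 ± 0.19 for tumors in Cy3 (SE).

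Both CA2 probes spread far more widely than ATP6V1C1, and their SS and LS values overlapped over most of their range. CA2 a ranged in SS from -4.25 in tumor 4 to 2.73 in tumor 2, with a median of -0.23. In LS the same probe ranged from -4.02 in tumor 29 to 1.38 in tumor 27, with a median of -0.96. CA2 b ranged from -2.30 to 2.33 in SS, with a median of -0.31, and from -1.82 to 1.06 in LS, with a median of -0.45, and its lowest and highest tumors in each group were the same as for CA2 a. Only 3 SS tumors exceeded the highest LS tumor on either probe, and no LS tumor fell below the lowest SS tumor.

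CA2 a had an SS mean of -0.32 ± 1.82 and an LS mean of -1.07 ± 1.29 (SD), which differed by 0.75 ± 0.54 (SE). For CA2 b the means were -0.14 ± 1.17 and -0.52 ± 0.69 (SD, n = 16 each), a difference of 0.39 ± 0.33 (SE). Both differences were smaller than the SD of either group. The differences were alike by dye, with 0.79 in Cy5 and 0.70 in Cy3 for CA2 a and with 0.39 and 0.38 for CA2 b. They depended on single tumors: without tumor 2 they were 0.54 and 0.22, and without tumor 4 they were 1.01 and 0.53. With array weights in limma they were 0.46 and 0.21. Over all 32 arrays the SD was 1.60 for CA2 a, larger than for 96.9% of probes, 0.96 for CA2 b, larger than for 91.9%, and 0.64 for ATP6V1C1, larger than for 84.0%.

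**Figure D1:**
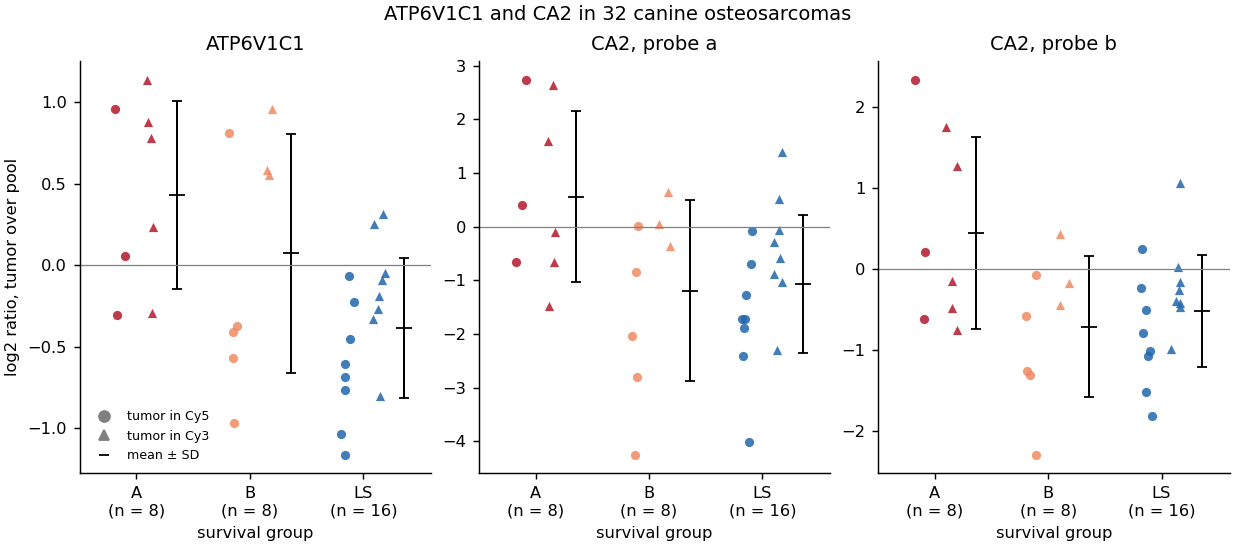
Log2 ratio of tumor over pool (vertical axis) for ATP6V1C1, CA2 a and CA2 b in SS subgroup A, SS subgroup B and LS, 1 point per tumor. Circles are tumors in Cy5, triangles tumors in Cy3, and bars the mean ± SD. ATP6V1C1 reached at most 0.31 in LS, and on both CA2 probes 3 tumors of subgroup A and 1 LS tumor lay above 1.

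Limma called 0 of 22176 probes (0%) between SS and LS at an adjusted p under 0.1, and 1581 probes (7.13%) passed an unadjusted p under 0.05, with 805 higher (3.63%) and 776 lower (3.5%) in SS. With the dye orientation as a block it called 94 probes (0.424%). Significance analysis of microarrays (SAM), the kind of test used in the study, was rebuilt at a false discovery rate of 10%. It called 115 probes higher (0.519%) and 1 probe lower (0.00451%) in SS. Over 10 seeds of its permutations the number called ranged from 38 to 116, with ATP6V1C1 called under 8 of 10 seeds and CA2 under 0. Since the genes were taken with this contrast known, these calls describe how they were picked.

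Among the subgroups of SS, the order of the means differed between the genes. ATP6V1C1 had its highest mean in subgroup A, 0.43 ± 0.58, followed by subgroup B with 0.073 ± 0.73 (SD, n = 8 each) and LS with -0.38 ± 0.43 (SD, n = 16). Subgroups A and B overlapped on this probe, from -0.31 to 1.14 in A and from -0.97 to 0.96 in B, and 6 tumors of A and 4 of B lay above the pool. The neighbors in this order differed by 0.36 (A minus B) and 0.46 (B minus LS), less than 1 SD of either SS subgroup. B minus LS was larger than the LS SD of 0.43.

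Both CA2 probes were highest in subgroup A, and their means in subgroup B and LS lay within 1 SD of each other. CA2 a averaged 0.55 ± 1.59 in A, from -1.49 in tumor 13 to 2.73 in tumor 2, and -1.20 ± 1.68 in B, from -4.25 in tumor 4 to 0.65 in tumor 10 (SD, n = 8 each). CA2 b averaged 0.44 ± 1.18 in A and -0.72 ± 0.87 in B, with ranges of -0.75 to 2.33 and -2.30 to 0.43. Above 1 on both probes were tumors 2, 9 and 16 of subgroup A, 0 tumors of B and, in LS, tumor 27. Below -1 on both probes were 0 tumors of A, 3 of B and 4 of LS, and all 7 of these low tumors were labeled in Cy5.

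The dyes were not balanced between the subgroups, since A held 3 Cy5 and 5 Cy3 tumors and B held 5 Cy5 and 3 Cy3 tumors. The mean of the Cy5-labeled tumors lay below that of the Cy3-labeled tumors by 0.59 for ATP6V1C1, by 1.27 for CA2 a and by 0.63 for CA2 b. With the orientations weighted equally, A exceeded B by 0.19 for ATP6V1C1, by 1.54 for CA2 a and by 1.07 for CA2 b. For tumors in Cy5 these differences were 0.54, 2.81 and 1.75, whereas for tumors in Cy3 they were -0.15, 0.28 and 0.39. The difference of ATP6V1C1 between A and B thus changed sign between the orientations, and those of CA2 were larger in Cy5. Single tumors moved these values. In Cy5, ATP6V1C1 gave 0.18 without tumor 1 and 0.82 without tumor 4, and the CA2 probes gave 1.85 and 0.90 without tumor 2. In Cy3, ATP6V1C1 gave from -0.30 without tumor 13 to 0.060 without tumor 15, and the CA2 probes gave -0.28 and 0.032 without tumor 9. With equal weights, A minus B ranged from 0.013 to 0.33 for ATP6V1C1, from 1.06 to 1.92 for CA2 a and from 0.65 to 1.38 for CA2 b when each tumor was left out, the lowest without tumor 1 for ATP6V1C1 and without tumor 2 for both CA2 probes.

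Against LS, again with equal weights, subgroup A was higher by 0.78 for ATP6V1C1, by 1.68 for CA2 a and by 1.01 for CA2 b. Subgroup B was higher by 0.58 for ATP6V1C1 and differed by 0.13 for CA2 a and by -0.063 for CA2 b. ATP6V1C1 was thus above LS in both SS subgroups and in both orientations (0.86 and 0.69 in A, 0.32 and 0.84 in B, for Cy5 and Cy3). In Cy5 this rested on few tumors, since A minus LS was 0.50 without tumor 1 and B minus LS was 0.043 without tumor 4. The difference of A from LS on CA2 was 2.55 and 0.80 for CA2 a and 1.48 and 0.53 for CA2 b in Cy5 and Cy3. Without tumor 2, the Cy5 values of A minus LS were 1.59 for CA2 a and 0.64 for CA2 b, from the 2 Cy5 tumors of A then left. Without tumor 9, the Cy3 values were 0.24 and 0.17. The difference of B from LS on CA2 a was -0.26 in Cy5, and 0.31 there without tumor 4, against 0.53 in Cy3. On CA2 b it was -0.27 in Cy5, and 0.031 there without tumor 4, against 0.14 in Cy3.

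**Figure D2:**
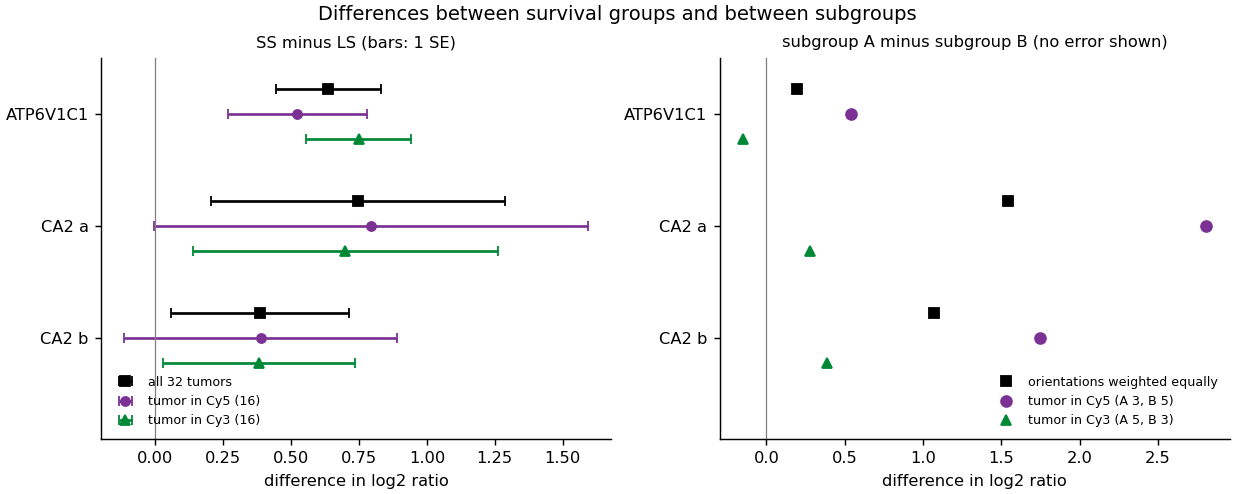
Differences in log2 ratio (horizontal axis) of SS minus LS with bars of 1 SE (left) and of subgroup A minus subgroup B without error (right), for ATP6V1C1, CA2 a and CA2 b. All differences of SS minus LS lie above 0 in either dye orientation, and the difference of CA2 a between A and B is 2.81 in Cy5 and 0.28 in Cy3.

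The 2 probes of CA2 gave nearly the same order of tumors. Their values had the same sign in 29 of 32 tumors, the other 3 being tumors 3, 12 and 31, each of them near 0 on CA2 a. CA2 b followed CA2 a with a slope of 0.584. After centring the values within survival group and dye orientation, they correlated at r = 0.967 and rho = 0.981 (n = 32, permutation p = 1e-05 for both, the smallest that 100000 resamples can give, and adjusted p = 0.00015 over 15 relations). Without tumors 2 and 4, the tumors farthest from the median, r was 0.956, and it was 0.971 in Cy5 and 0.960 in Cy3.

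ATP6V1C1 and CA2 did not vary together from tumor to tumor to a detectable degree. The centred values of ATP6V1C1 correlated with CA2 a at r = 0.0506 and rho = 0.120 (permutation p = 0.83 and 0.543, adjusted p = 0.944 and 0.801) and with CA2 b at r = 0.0081 and rho = 0.111 (permutation p = 0.974 and 0.578, adjusted p = 0.974 and 0.801). Leaving out tumors 1 and 4 gave r = 0.187 and 0.122. For CA2 a and CA2 b, r was -0.082 and -0.090 within SS and 0.378 and 0.294 within LS. These values by group were not tested. Tumor 4 held 0.81 of ATP6V1C1 with the lowest CA2 a of all, -4.25, and tumor 13 held the highest ATP6V1C1, 1.14, with -1.49 of CA2 a. In contrast, tumor 16 was high on all 3 probes, with 0.88, 1.59 and 1.27. ATP6V1C1 and CA2 a were both above the pool in 6 tumors, of which 5 were SS, and both below it in 17 tumors, of which 13 were LS.

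**Figure D3:**
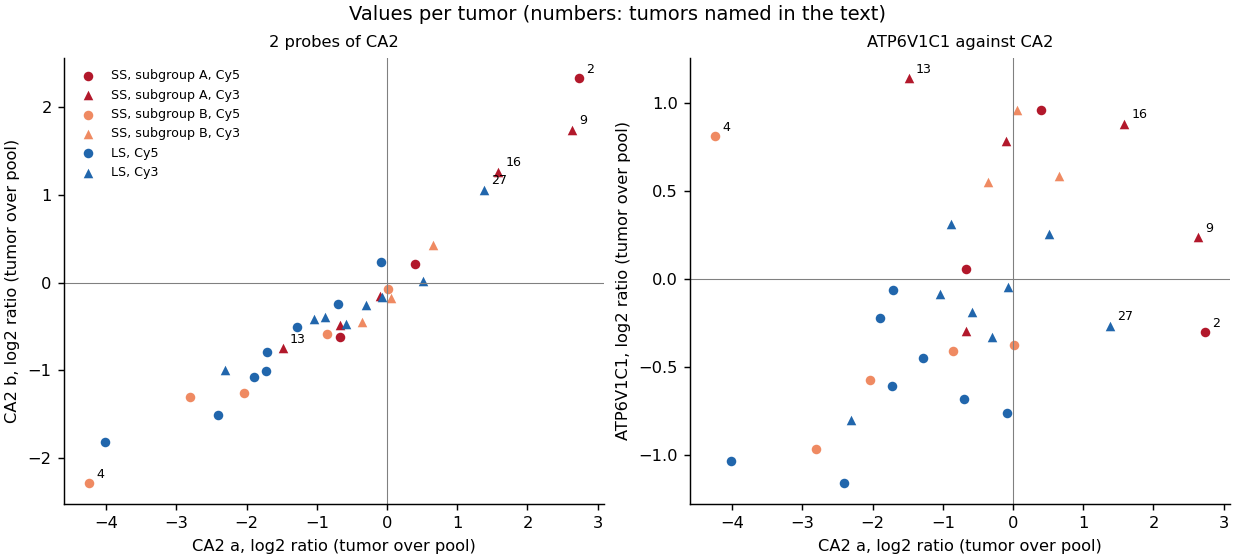
Log2 ratios per tumor of CA2 b (left) and ATP6V1C1 (right), on the vertical axes, against CA2 a on the horizontal axes. Red marks subgroup A, orange subgroup B and blue LS, with circles for Cy5 and triangles for Cy3. The CA2 probes lie along a line, while tumors 4 and 13 combine high ATP6V1C1 with low CA2.

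ATP6V1C1 followed the mean of the other subunits of its pump, but not them alone. The mean of 30 probes of 16 other V-ATPase genes correlated with ATP6V1C1 at r = 0.649 and rho = 0.614 on centred values (n = 32, permutation p = 0.00028 and 0.00058, adjusted p = 0.0021 and 0.00435 over the 15 relations). It was 0.555 without tumors 1 and 4, 0.730 in Cy5 and 0.514 in Cy3, and 0.685 within SS and 0.600 within LS. Single subunits, named after their values were seen, differed in this. ATP6V1G1 and ATP6V1D, of the stalks of the cytosolic sector, reached 0.698 and 0.685. ATP6V0C, which lines the proton path, gave 0.684, 0.645 and 0.0162 on its 3 probes, and ATP6V1C2, the other form of the C subunit, gave 0.285 and -0.365 on its 2 probes. Genes outside the pump, also named after their values were seen, reached similar r. LAMP1 of the ruffled border list gave 0.511 to 0.629 over its probes. SPTB of the erythroid list gave 0.611, against -0.251 to 0.178 for the other erythroid probes.

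CA2 also varied, less closely, with the V-ATPase mean and with the mean of the osteoclast markers, which share genes. CA2 a correlated with the V-ATPase mean at r = 0.453 and rho = 0.481 (permutation p = 0.0233 and 0.00873, adjusted p = 0.0873 and 0.0218) and with the mean of the osteoclast markers at r = 0.465 and rho = 0.542 (permutation p = 0.011 and 0.00264, adjusted p = 0.055 and 0.0132). Without tumors 2 and 4 these r were 0.632 and 0.511. For CA2 b the values were r = 0.398 and rho = 0.496 with the V-ATPase (permutation p = 0.0548 and 0.00731, adjusted p = 0.134 and 0.0218) and r = 0.380 and rho = 0.522 with the osteoclast markers (permutation p = 0.0474 and 0.00463, adjusted p = 0.134 and 0.0174). The relations of CA2 b thus passed the threshold of 0.1 by rank but not by Pearson's r, and r rose to 0.511 and 0.519 without tumors 2 and 9. The osteoclast list had only 7 probes of 6 genes, and 2 of these genes, ATP6V0D2 and TCIRG1, are also V-ATPase subunits. The probes were averaged without scaling, and ATP6V0D2, with an SD of 1.57 over 32 arrays, was the widest probe in both means. In the osteoclast mean CTSK had 1.16 and the remaining probes 0.19 to 0.52. The single osteoclast probes gave r with CA2 a from -0.051 for ITGAV to 0.589 for ATP6V0D2. ATP6V1C1 itself did not pass with the osteoclast markers, at r = 0.353 and rho = 0.358 (permutation p = 0.0626 and 0.057, adjusted p = 0.134 and 0.122). With values centred within dye orientation only, ATP6V1C1 gave r = 0.416 (adjusted permutation p = 0.0493), and without centring r = 0.389 (adjusted permutation p = 0.0587). Both settings keep the difference between SS and LS, which was known when the gene was chosen. These 2 values are therefore no support for the relation.

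**Figure D4:**
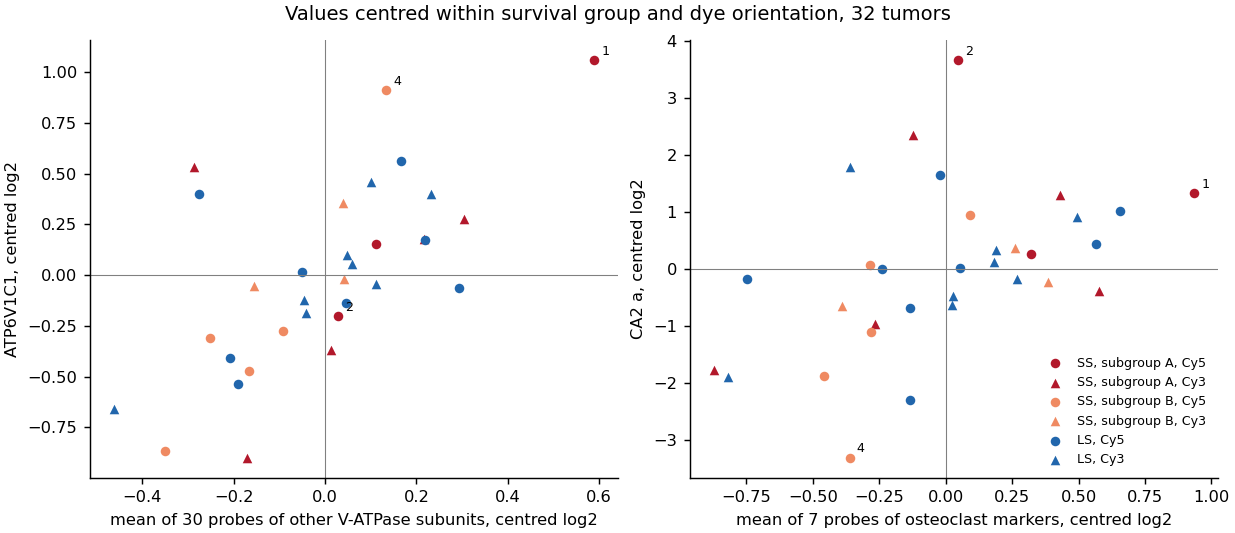
Values centred within survival group and dye orientation for 32 tumors: ATP6V1C1 against the mean of 30 probes of other V-ATPase subunits (left) and CA2 a against the mean of 7 probes of osteoclast markers (right), in log2 units. The correlations are 0.649 and 0.465, and tumor 2 stands highest in CA2 a with an osteoclast mean near 0.

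Among single osteoclast genes, ATP6V0D2, the d2 subunit of the pump that osteoclasts use, was the most like CA2, with r = 0.589 for CA2 a and 0.492 for CA2 b, against 0.313 for ATP6V1C1. Its mean log2 ratio was 0.45 for subgroup A, -0.82 for B and -0.84 for LS, but the order depended on the dye: in Cy5 the means were 0.74, -1.60 and -1.81, and in Cy3 they were 0.27, 0.47 and 0.13, with B highest. The collagen-degrading protease CTSK gave r of 0.336 and 0.262 with the CA2 probes, and TNFRSF11A, the receptor of the osteoclast-forming signal, 0.448 and 0.433. These single correlations were picked after their values were seen and are descriptions over 32 tumors that share the pool.

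The 4 tumors highest in CA2 differed in these partners. Tumor 16 was also high in ATP6V0D2 (1.54) and CTSK (0.92). Tumor 9 had 0.26 and -0.46, and tumor 27, the only such LS tumor, had -0.82 and -1.51. Tumor 2 had -0.11 and -0.13 but the highest values of all tumors for CA1, the red cell carbonic anhydrase, and GYPC, a red cell membrane protein, at 1.39 and 1.58. Its mean of the 5 erythroid probes was 1.00, whereas tumors 9, 16 and 27 had -0.22, -0.13 and -0.25. The part of red cells in the CA2 values was not tested beyond the correlations: with the erythroid mean CA2 a gave r = 0.346 and rho = 0.103 (permutation p = 0.2 and 0.584, adjusted p = 0.334 and 0.801) and CA2 b gave r = 0.450 and rho = 0.102 (permutation p = 0.114 and 0.587, adjusted p = 0.214 and 0.801). Without the farthest tumors, tumor 2 among them, these r were -0.0893 and 0.0108.

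With the mean of 17 macrophage probes no relation passed either, with r of 0.101 for ATP6V1C1, -0.133 for CA2 a and -0.0795 for CA2 b (adjusted permutation p = 0.919, 0.876 and 0.919). Single macrophage probes, named after their values were seen, gave r with ATP6V1C1 from -0.146 for C1QC to 0.551 for CD68. The widest probe of this unscaled mean, of LYZ with an SD of 1.26, gave -0.024. The erythroid mean gave r = -0.0389 with ATP6V1C1 (adjusted permutation p = 0.944).

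The named genes whose centred values were most like ATP6V1C1 were NPC2, which carries cholesterol out of lysosomes (r = 0.755), COQ9 of coenzyme Q synthesis (0.739), SEC11C of the signal peptidase (0.737), RNASEK, a partner of the V-ATPase (0.706), and ATP6V1G1 (0.698). Other probes of the same genes were less alike, from 0.560 to 0.609 for COQ9, from 0.502 to 0.605 for RNASEK and from 0.167 to 0.692 for SEC11C. For CA2 a they were BDH1, a ketone body enzyme (0.676), TMEM89 (0.654), the complement protein C9 (0.651), LETM2 and, last in this order, HTRA4 (0.639). For CA2 b they were TMEM89 (0.719), HTRA4 (0.713), BDH1 (0.704), the sodium channel SCN2A (0.663) and C9 (0.654). None of those most like CA2 belongs to the gene lists of acid secretion, and the other probe of TMEM89 had r of 0.0727 with CA2 a and -0.0586 with CA2 b. All genes of this ranking were taken for having the highest r among the named genes of the array. Their r were not tested.

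The rest of the acid secretion pathway was described from lists without ATP6V1C1 and CA2. Of the 30 probes of V-ATPase subunits, 25 had a higher mean in SS and 5 a lower one, with a median difference of 0.14, beside a median of -0.00060 over all probes, of which 11039 were higher and 11137 lower. At an adjusted p under 0.1 limma called 0 of them, and at an unadjusted p under 0.05 it found 1 higher and 0 lower, a share below the background of 7.13%. That probe belonged to ATP6V1B2, the ATP-binding B subunit, with a difference of 0.34 ± 0.17 (SE, adjusted p = 0.697). With the dye orientation as a block, 8 of the 30 probes (26.7%), from 6 genes, had an unadjusted p under 0.05, beside 14.1% of all probes, and 6 of the 8 were higher. Again 0 passed the adjusted threshold.

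Within 1 dye orientation limma called more probes, 1311 (5.91%) in Cy5 and 2129 (9.6%) in Cy3. Of the V-ATPase probes it called 1 in Cy5, of ATP6V0C, higher by 0.58 (adjusted p = 0.00779, against a difference of 0.0077 in Cy3). In Cy3 it called 3, of ATP6V1E1 (0.38, adjusted p = 0.012), ATP6AP1 (0.51, adjusted p = 0.0679) and ATP6V1G2 (-0.38, adjusted p = 0.0435), with differences of -0.14, -0.00096 and -0.033 in Cy5. None of these 4 was called in both orientations. They are named after their values were seen.

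The further named V-ATPase subunits, each by its probe with the smallest p, were ATP6V1D (0.23 ± 0.12), ATP6V0C (0.36 ± 0.19) and ATP6V1C2 (0.31 ± 0.18, all SE, adjusted p = 0.728, 0.728 and 0.759). This probe of ATP6V1C2 differed by 0.015 in Cy5 and by 0.60 in Cy3. The other ATP6V1C2 probe differed by -0.022 (-0.036 in Cy5 and -0.0072 in Cy3). The other ATP6V0C probes differed by 0.16 and 0.30. The largest difference of the list, 0.65 ± 0.53 for ATP6V0D2, had an adjusted p of 0.83 and was 1.09 in Cy5 and 0.21 in Cy3. Of the 30 probes, 19 were higher and 4 lower in both orientations, and 7 had opposite signs. V-ATPase assembly factors had 8 of 9 probes above 0 with a median of 0.10, led by VMA21 (0.25 ± 0.16) and DMXL2 (0.25 ± 0.18), and 0 of them passed (adjusted p = 0.779 and 0.798). Of these 9 probes 6 had opposite signs in the orientations, among them VMA21 with 0.54 in Cy5 and -0.037 in Cy3.

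The other carbonic anhydrases had no common direction. Their 5 probes of 4 genes, 2 above and 3 below 0, had a median difference of -0.049 and ranged from -0.46 for CA10 to 0.16 for CA1, with adjusted p of 0.774 and 0.838. The CA10 probe with -0.46 differed by -0.13 in Cy5 and by -0.79 in Cy3. The other CA10 probe differed by -0.049, with 0.27 in Cy5 and -0.37 in Cy3. Ion partners of acid secretion had 4 probes. CLCN7, the chloride exchanger of the ruffled border, differed by 0.13 ± 0.069 (adjusted p = 0.721) and SLC9A9, a sodium-proton exchanger, by 0.27 ± 0.14 (adjusted p = 0.723). In Cy5 and Cy3 the differences were 0.25 and 0.018 for CLCN7 and 0.11 and 0.42 for SLC9A9. SLC4A4, a bicarbonate transporter, differed by 0.023 ± 0.11 (adjusted p = 0.964), with 0.062 in Cy5 and -0.016 in Cy3, and correlated with CA2 a at r = 0.554 and with CA2 b at 0.501.

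Ruffled border traffic genes had 16 of 17 probes above 0 with a median of 0.16, and 2 of the 17 probes had an unadjusted p under 0.05, beside 7.13% of all probes. With the orientation block 3 of the 17 (17.6%) did, beside 14.1% of all probes. Between the orientations 7 of the 17 probes had opposite signs. LYST, a regulator of lysosome size, differed by 0.24 ± 0.081 (adjusted p = 0.543) and the lysosomal membrane protein LAMP2 by 0.35 ± 0.16 (adjusted p = 0.656). VPS35 and SNX10 differed by 0.26 and 0.25 (adjusted p = 0.716 and 0.743). Other probes gave smaller differences. They were 0.099 for LYST (0.028 in Cy5 and 0.17 in Cy3) and 0.050 for VPS35 (0.48 in Cy5 and -0.38 in Cy3). For LAMP2 they were 0.33, 0.26 and 0.17, the last with 0.28 in Cy5 and 0.051 in Cy3. Osteoclast markers were above 0 in 7 of 7 probes with a median of 0.13, but 3 of the 7 had opposite signs in the orientations. Their genes overlap other lists, with TCIRG1 and ATP6V0D2 among the V-ATPase subunits and CLCN7 among the ion partners. ATP6V0D2 led the osteoclast markers in size, followed by CTSK with 0.45 ± 0.40 (adjusted p = 0.84, with 0.78 in Cy5 and 0.11 in Cy3), and 0 reached an unadjusted p under 0.05. Osteoclast formation signals had a median of 0.0091 over 8 probes, with TYROBP, an adaptor of immune receptors, at 0.22 and CSF1R, the receptor of macrophage colony-stimulating factor, at 0.21 (adjusted p = 0.871 and 0.892). CSF1R differed by 0.41 in Cy5 and by 0.021 in Cy3, and 6 of the 8 probes had opposite signs in the orientations.

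**Figure D5:**
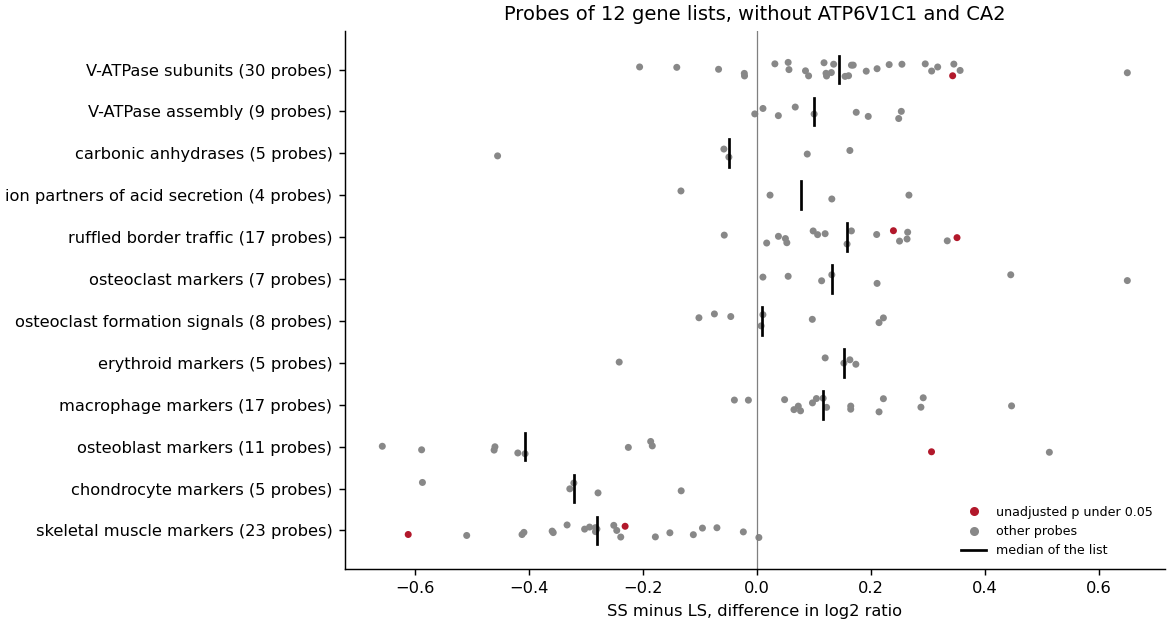
SS minus LS differences in log2 ratio (horizontal axis) for the probes of 12 gene lists without ATP6V1C1 and CA2, 1 point per probe, with the median of each list as a bar and probes at an unadjusted p under 0.05 in red. V-ATPase, ruffled border and osteoclast probes lie mostly above 0, and bone, cartilage and muscle probes mostly below.

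Lists of markers of other cells also had medians away from 0. The median difference was 0.15 over 5 erythroid probes, 0.12 over 17 macrophage probes, -0.41 over 11 osteoblast probes, -0.32 over 5 chondrocyte probes and -0.28 over 23 skeletal muscle probes. The chondrocyte median was 0.17 in Cy5 and -0.81 in Cy3, and 3 of the 5 probes had opposite signs. So did 1 of 5 erythroid, 6 of 17 macrophage, 2 of 11 osteoblast and 5 of 23 muscle probes. Macrophage probes were above 0 in 15 of 17 cases, and CD163 (0.29, adjusted p = 0.747) and CD68 (0.45, adjusted p = 0.754; 0.77 in Cy5 and 0.12 in Cy3) had the smallest p. The osteoblast median came from 8 probes of the matrix genes SPARC and COL1A2 and 1 probe of ALPL, all below 0 with both orientations together. ALPL had opposite signs in the orientations, 0.51 in Cy5 and -0.88 in Cy3. SPARC differed by -0.27 in Cy5 and -1.04 in Cy3 on probe 3034, and by -0.20 and -0.72 on probe 4643. The other genes of that list were above 0, PHEX, a regulator of phosphate, by 0.31 (adjusted p = 0.624) and SPP1, which encodes osteopontin, by 0.51 (adjusted p = 0.888, with opposite signs in the orientations, -0.47 in Cy3). Muscle probes were below 0 in 22 of 23 cases. The smallest p in this list were those of DES (-0.61, adjusted p = 0.624) and MB (-0.23, adjusted p = 0.696; -0.040 in Cy5 and -0.42 in Cy3). The part of these cells in the differences of ATP6V1C1 and CA2 was not tested. Over the 12 lists, 0 of 133 probes of 80 genes were called by limma, and 6 (4.51%) had an unadjusted p under 0.05, 4 of them higher in SS, beside 7.13% of all probes. With the orientation block 20 of the 133 (15%) had an unadjusted p under 0.05, beside 14.1% of all probes.

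Histology and grade, which had no part in choosing the genes, were compared in limma fits with survival group and dye orientation as covariates. In tumors with a fibroblastic component ATP6V1C1 averaged 0.11 ± 0.57 against -0.24 ± 0.67 in the rest (SD, n = 16 each), with a fitted difference of 0.44 ± 0.15 (SE, 95% interval 0.13 to 0.74). It did not pass the adjustment over all probes (p = 0.00617, adjusted p = 0.545). For CA2 a and CA2 b the fitted differences were 0.72 ± 0.49 and 0.41 ± 0.31 (SE, adjusted p = 0.84 and 0.872). The fit for the fibroblastic component called 0 probes (0%), with 1574 (7.1%) at an unadjusted p under 0.05.

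The other features gave no call for either gene. For the chondroblastic component, 8 tumors against 24, the fitted differences were -0.11 ± 0.19 for ATP6V1C1, 0.19 ± 0.59 for CA2 a and 0.021 ± 0.37 for CA2 b. For the telangiectatic component, present in 4 tumors, they were 0.012 ± 0.26, -0.36 ± 0.78 and -0.26 ± 0.49. High grade, in 25 tumors against 7 of lower grade, gave -0.23 ± 0.20, -0.40 ± 0.63 and -0.0074 ± 0.40 (SE). All adjusted p were 0.994 or higher, and with 4 and 7 tumors in the smaller group the intervals were wide, for CA2 a from -1.95 to 1.22 and from -1.67 to 0.88. These fits called 0 probes (0%) each, and 443 (2%), 1040 (4.69%) and 876 (3.95%) had an unadjusted p under 0.05.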

How the data were processed

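Per the methods, bad spots were flagged by the authors, each print-tip group was normalized with Lowess, a log transformation followed, and dye-swapped arrays were switched. The deposited values are log2 ratios of tumor over pool. The base was inferred from the size of the values, the direction from the stated switching, and the image software is not given in the sources used here. Probes were named from the platform annotation, and 0 value columns were left out. No intensities were analysed here, and the number of arrays limits the precision. Survival group and dye came from the labels, histology and grade from the study's clinical table. Membership of subgroups A and B, which the labels do not give, is the only split of the 16 SS dogs into 8 and 8 that meets the study's counts and log rank statistic.

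SS and LS were compared by lmFit and eBayes of limma 3.58.1 under R 4.3.3 (two-sided, Benjamini-Hochberg over 22176 probes, threshold 0.1). SAM was rebuilt in Python 3.11.15 with 100 permutations and 10 neighbors for 5 missing values. Correlations were two-sided with 100000 permutations within the 4 combinations of survival group and dye in NumPy 2.4.6 and SciPy 1.17.1, adjusted over 15 relations. Limma and SAM were tested on simulated data. Named are all member probes, per list up to 4 genes by smallest p, per member the 5 most alike genes, and genes stated as chosen after their values were seen, which include every subunit or marker set singly against the members. Differences of list genes between SS and LS are those of the gene's probe with the smallest p unless other probes are named. The genes, the 12 lists and the tests were chosen with earlier results of these data known. Dogs are biological replicates. Alternatives were the orientation as block, each orientation alone, equal array spread, turned Cy3 signs, array weights, SAM, other centring, fits without covariates and each tumor left out, and, added after seeing the data, equal orientation weights, each tumor left out within an orientation, and SAM seeds.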

Additional observations from a re-analysis of the deposited data

How the results depend on the processing

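The base of the logarithm and the switching of the dye-swapped arrays are not recorded in the values, and no signal over background was analysed here. If the signs of the Cy3-labeled tumors were turned, the difference of ATP6V1C1 between SS and LS was -0.11 and those of CA2 a and CA2 b were 0.047 and 0.0032. Limma then called 2214 probes in all and 4 of the lists. The direction of the Cy3 values, and of differences that include them, thus rests on the stated switching. Values within Cy5 were not changed by the turning. Under each other alternative run the SS minus LS differences of the 3 probes kept their direction, and array weights gave 0.50 for ATP6V1C1, 0.46 for CA2 a and 0.21 for CA2 b.

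Limma called 0 probes between SS and LS, against 94 with the orientation block, 1311 in Cy5 and 2129 in Cy3 alone, 2 with equal array spread, 3 with array weights, and 116 by SAM with a median of 62 over 10 seeds. The cause was not tested. Without 1 tumor it called 0 to 2, with 2 without tumor 1. Of the list probes 2 were called in Cy5 and 10 in Cy3 alone, and 0 without any single tumor. Leaving out each tumor gave SS minus LS of 0.58 to 0.72 for ATP6V1C1, 0.54 to 1.01 for CA2 a and 0.22 to 0.53 for CA2 b, and A minus B of 0.21 to 0.49, 1.32 to 2.04 and 0.89 to 1.33. A minus B of ATP6V1C1 was -0.15 in Cy3 alone.

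Without survival group and dye in the fit, the differences by chondroblastic component were -0.026 for CA2 a and -0.085 for CA2 b, by telangiectatic component -0.17 for ATP6V1C1, and by high grade 0.0069, 0.042 and 0.20 for ATP6V1C1, CA2 a and CA2 b, each turned in sign and none past the threshold. Of 15 relations 4 passed by Pearson's r, against 8 with centring within dye only and 7 without centring. Those that newly passed were ATP6V1C1 and CA2 b with the osteoclast markers and CA2 b with the V-ATPase mean under both, and CA2 b with the erythroid mean (r = 0.472) within dye only. Neither setting removes the difference between SS and LS, which was known when the genes were chosen, so these passes are no support. ATP6V1C1 then gave r = 0.0782 with the erythroid mean (dye only) and r = -0.0557 with the macrophage mean (no centring). No paired analysis was possible because SS and LS tumors came from different dogs and share no replicate number.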
